A study of Mus musculus with 6 samples.

Results

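The genes described here were 10 regulators and effectors of the ATF4 and CHOP stress response, out of 22651 genes quantified by mRNA-sequencing in the mouse telencephalon at postnatal day 0. They were found by gene symbol in the table of every library and comprised the transcription factors Atf4, Atf5, Ddit3 (which encodes CHOP), Cebpb and Cebpg, the stress regulators Trib3 and Nupr1, and the effectors Chac1, Asns and Stc2. All 10 had a row in every library and all 10 passed the filter on low counts. They had been selected with their difference between WT and TSC1 known, so their levels and fold changes are given as a description without p-values.

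The comparison was between 2 genotypes, with 3 libraries each. All animals carried the floxed Tsc1 allele on both chromosomes (TSC1 flox/flox). The WT group lacked Cre (TSC1 flox/flox;Emx1 +/+, Cre-negative littermates), and the TSC1 group carried Cre at the Emx1 locus (TSC1 flox/flox;Emx1-cre/+), which is expressed in the embryonic dorsal cortex. Deletion of Tsc1, a brake on the kinase complex mTORC1, is therefore limited to cells of that lineage, while the dissected telencephalon also holds ventral neurons, vessels, blood cells and other cells without it. Each library came from a separate mouse, and the labels do not name litters.

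ATF4 is the effector of the integrated stress response. A family of kinases, which sense lack of amino acids, unfolded proteins in the endoplasmic reticulum, viral RNA or heme deficiency, phosphorylate the initiation factor eIF2 alpha, and this lowers general protein synthesis while favouring translation of the Atf4 mRNA. ATF4 is also an output of mTORC1, which raises its translation and the stability of its mRNA. As a basic leucine zipper (bZIP) protein, ATF4 pairs with C/EBP family members and binds C/EBP-ATF composite elements (CARE) at genes for amino acid synthesis, uptake and tRNA charging, and CHOP, itself encoded by an ATF4 target, acts in prolonged stress. Since much of ATF4 regulation is translational, mRNA levels of Atf4 do not report ATF4 protein.

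Promoter windows of the 10 genes were read from the RefSeq table of GRCm38.p6, which is the assembly of mm10, from 250 bases before to 50 bases after the annotated start. All 10 genes had at least 1 window. A CARE-like match, TGATGNAA on either strand, was found for 4 of the 10, namely Chac1, Asns, Nupr1 and Trib3, whereas 3.97% of all 32851 windows and 4.51% of the 27025 genes with a window held one. The stricter TGATGCAA, whose matches are contained in the former, was found for 2 of the 10, Chac1 and Nupr1, and in 0.895% of windows. The 250 bases upstream of the start are given for 3 genes, because Chac1 had the largest fold change of the group, Asns the most uniform one, and Nupr1 held the same letters as Chac1 but was not higher in TSC1. Sequences run 5′ to 3′ on the strand of the gene, and capitals mark the CARE-like match.
Chac1 (chr2:119350992-119351241, plus strand): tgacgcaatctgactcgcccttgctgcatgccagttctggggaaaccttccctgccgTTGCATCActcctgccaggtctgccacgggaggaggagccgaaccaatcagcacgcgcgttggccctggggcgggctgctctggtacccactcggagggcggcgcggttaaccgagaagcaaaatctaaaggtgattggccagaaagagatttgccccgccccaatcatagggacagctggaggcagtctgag
Asns (chr6:7693210-7693459, minus strand): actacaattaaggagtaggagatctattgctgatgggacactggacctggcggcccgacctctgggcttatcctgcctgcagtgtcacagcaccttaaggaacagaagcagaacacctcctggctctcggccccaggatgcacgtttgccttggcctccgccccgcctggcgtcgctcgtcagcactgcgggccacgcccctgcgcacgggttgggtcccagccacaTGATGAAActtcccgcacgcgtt
Nupr1 (chr7:126625471-126625720, minus strand): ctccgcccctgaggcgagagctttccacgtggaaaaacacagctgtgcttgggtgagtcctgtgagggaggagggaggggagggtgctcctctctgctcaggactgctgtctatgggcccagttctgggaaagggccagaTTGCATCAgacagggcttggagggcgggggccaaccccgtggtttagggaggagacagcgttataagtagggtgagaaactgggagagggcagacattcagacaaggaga

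The match of Chac1 began 193 bases before the start (chr2:119351049-119351056) and that of Nupr1 began 110 bases before it (chr7:126625573-126625580), both as TTGCATCA, the reverse complement of TGATGCAA. The match of Asns, TGATGAAA, began 23 bases before the start (chr6:7693225-7693232). Trib3 held TTACATCA at base 15 after its start (chr2:152344039-152344046). No match was found in the windows of Atf4, Atf5, Ddit3, Cebpb, Cebpg or Stc2, which says only that these letters are not in these windows. A match to letters is a description of the sequence and was not measured as a binding site.

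The 6 libraries held between 14119365 and 17772865 expected counts, at which 3 counts of a gene correspond to 0.169 to 0.212 CPM (expected counts scaled to the library total). Replicate 3 of each group stood apart from replicates 1 and 2 in sex: Xist was at 0.48 and 0.66 TPM (the length-corrected share of a gene among all transcripts) in these 2 libraries and at 442 to 509.9 TPM in the other 4, while Ddx3y was at 64.3 and 62.0 TPM against 0. TSC1 replicate 3 also differed less from WT replicate 3 (chi-square per degree of freedom of their counts 11.1) than from TSC1 replicates 1 and 2 (16.2 and 17.4). WT replicate 1 likewise differed about as much from TSC1 replicate 1 (12.1) as from WT replicate 2 (12.2), and more from WT replicate 3 (17.3). Calls are therefore also given with single libraries left out. Tsc1, the targeted gene (chr2:28640993-28691172), was at 50.2, 32.0 and 28.4 TPM in WT and at 27.1, 21.7 and 22.4 TPM in TSC1. All TSC1 libraries were lower than all WT libraries, with a log2 fold change of -0.66 (SE 0.18, edgeR quasi-likelihood adjusted p = 0.1), which did not pass the 0.05 threshold. It passed in DESeq2 (adjusted p = 0.00319) and with a sex term (adjusted p = 0.0422). These values include exons outside the deleted part and cells without Cre. The telencephalic markers Emx1 and Lhx2 were present in every library, Emx1 at 39.8 to 47.4 TPM in WT and 36.2 to 40.8 TPM in TSC1, and Lhx2 at 110.7 to 131.9 TPM in WT and 147.9 to 157 TPM in TSC1.

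Across all 13969 genes tested with edgeR, 212 (1.52%) passed an adjusted p of 0.05, 120 of them higher in TSC1 (0.859%) and 92 lower (0.659%). Among the 10 stress response genes, 4 passed that threshold, all higher in TSC1, namely Asns, Atf5, Stc2 and Chac1, and none passed it as lower. The 3 libraries of TSC1 were all above the 3 libraries of WT on the CPM scale for 7 of the 10, adding Trib3, Ddit3 and Cebpb, beside 10.9% of all genes tested. Atf4 and Cebpg overlapped between the groups, and Nupr1, which also overlapped, had a lower mean in TSC1. The median log2 fold change of the 10 was 1.04, and that of all genes tested was -0.0027. The genes were selected on this contrast, so nothing is read from these counts about the group as such. The same holds for each gene that passed and for the tallies over alternative fits given below. Those fits use the same libraries, so the tallies describe how a call depends on the processing and add no support for it.

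**Figure D1:**
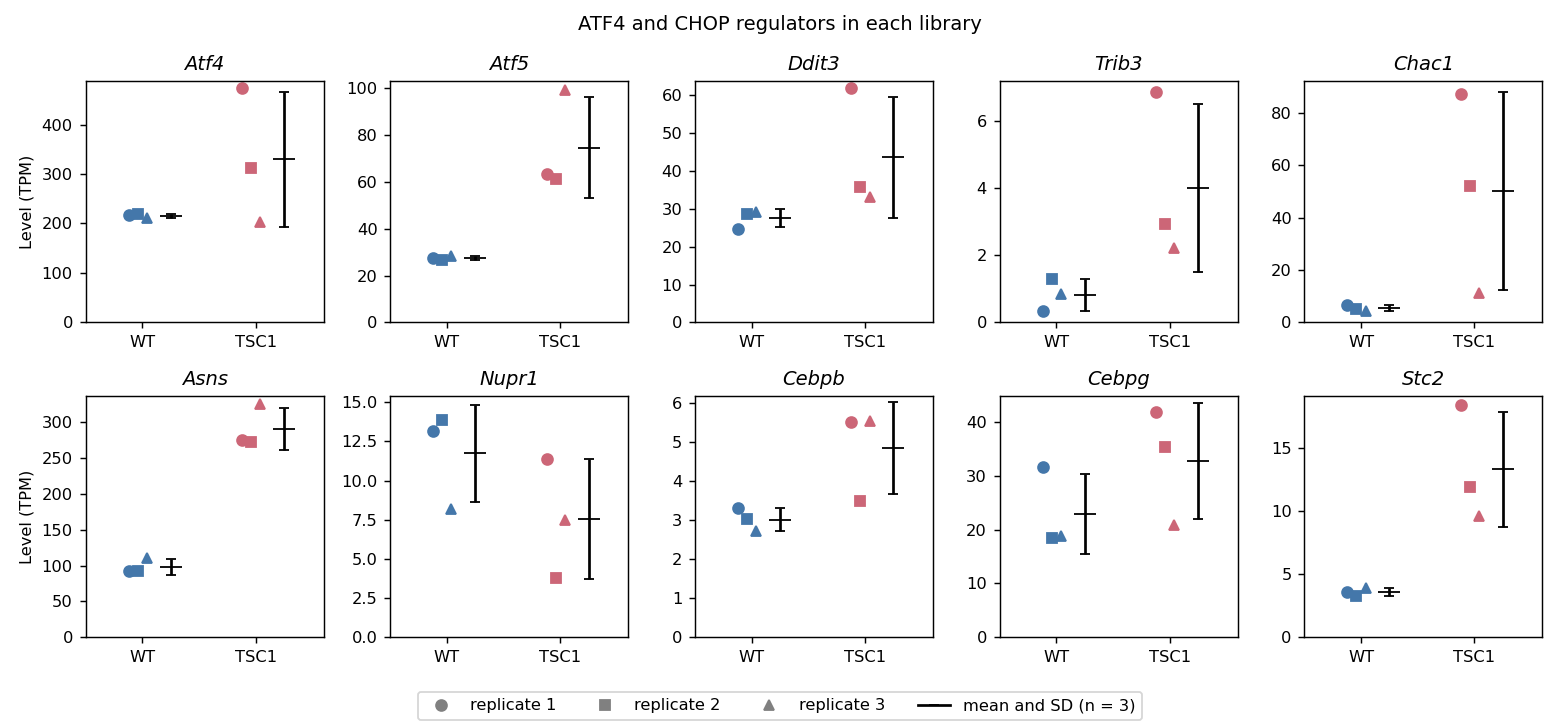
Level in TPM (y axis, linear, from 0) of each of the 10 genes in the 3 WT (blue) and 3 TSC1 (red) libraries, with marker shape giving the replicate number and black bars the mean and SD of 3 libraries. Atf5, Asns and Stc2 show a gap between the groups, Atf4 and Chac1 spread widely within TSC1, and Nupr1 is lower on average in TSC1.

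Atf4, the bZIP factor at the centre of the response (chr15:80255184-80257545), was at 217, 219 and 210.4 TPM in WT replicates 1, 2 and 3 and at 474, 311 and 204 TPM in TSC1 replicates 1, 2 and 3. The 3 WT libraries were almost identical, with a coefficient of variation of 2.07%, whereas that of TSC1 was 41.3%. TSC1 replicate 1 was 2.2 times the WT mean and replicate 2 was 1.45 times it, while replicate 3 lay at 0.946 times, below every WT library. The log2 fold change of the group was 0.57 (SE 0.23), and it did not pass the threshold. Without TSC1 replicate 3 it was 0.82 and did pass, in a fit in which 5.68% of all 14079 genes tested passed. That fit held no TSC1 library with Ddx3y, whereas WT replicate 3 stayed in. It was the only fit of 16 alternatives in which Atf4 passed. Over these alternatives the log2 fold change lay between 0.24 and 0.82.

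Ddit3, which encodes CHOP (chr10:127290793-127296291), was at 24.8, 28.7 and 29.1 TPM in WT and at 61.9, 35.7 and 33.1 TPM in TSC1. TSC1 replicate 1 stood above the rest at 2.25 times the WT mean, and the other two lay just above the highest WT library, at 1.3 and 1.2 times that mean. The log2 fold change was 0.62 (SE 0.23). It passed the threshold under none of 16 alternative analyses, TSC1 replicate 3 left out included, although its direction was the same in all of them.

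Atf5, a bZIP factor related to ATF4 that is likewise controlled through translation and that activates the mitochondrial unfolded protein response (chr7:44812256-44816658), was at 27.4, 26.5 and 28.3 TPM in WT. In TSC1 it was at 63.4, 61.2 and 99.5 TPM, so that the lowest TSC1 library was 2.16 times the highest WT library. Its log2 fold change was 1.43 (SE 0.19), or 2.69-fold. In contrast to Atf4 and Ddit3, Atf5 was highest in TSC1 replicate 3. The ratio of Atf4 to Atf5 in TPM was accordingly 7.91, 8.27 and 7.44 in WT and 7.48, 5.09 and 2.05 in TSC1. That of Ddit3 to Atf5 was 0.903, 1.08 and 1.03 in WT and 0.977, 0.584 and 0.333 in TSC1. TSC1 replicate 1 thus held the 3 factors in the proportions of WT, at 2.2 to 2.31 times the WT means, whereas replicate 3 held Atf5 at 3.63 times, Ddit3 at 1.2 times and Atf4 at 0.946 times. Atf5 was the only one of the 10 whose transcript length, as weighted by RSEM over isoforms, varied between libraries, at 1810.3 ± 5.1 bases (SD, n = 3) in WT and 1815.7 ± 0.456 bases (SD, n = 3) in TSC1 (two-sided exact permutation test, p = 0.4, smallest possible p 0.1).

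The C/EBP partners Cebpb and Cebpg differed less. Cebpb, an intronless gene for C/EBP beta (chr2:167688915-167690432), was low in all libraries, at 3.32, 3.02 and 2.71 TPM in WT and 5.51, 3.5 and 5.54 TPM in TSC1, and its log2 fold change was 0.65 (SE 0.25). The groups were separate only by the step from 3.32 to 3.5 TPM, and counts ranged from 21 to 47 per library, which limits what can be resolved. Cebpg, the gene for C/EBP gamma, a dimer partner of ATF4 (chr7:35046422-35056566), was at 31.6, 18.4 and 18.7 TPM in WT and 41.9, 35.4 and 20.9 TPM in TSC1, and its log2 fold change was 0.49 (SE 0.25). WT replicate 1 lay above TSC1 replicate 3, so the groups overlapped. Neither gene passed the threshold under any of the 16 alternatives.

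Trib3 encodes a pseudokinase that is induced by ATF4 and CHOP and binds ATF4 in a feedback loop (chr2:152337425-152344060). It was near the limit of detection in WT, at 0.34, 1.29 and 0.85 TPM from 4, 17 and 9 counts, and was at 6.88, 2.93 and 2.22 TPM in TSC1 from 74, 30 and 26 counts. All TSC1 libraries exceeded all WT libraries, the lowest by 1.72 times the highest WT value. The log2 fold change of 2.2 (SE 0.53) was the second largest of the 10 but did not pass the threshold in edgeR. Trib3 passed under 4 of 15 alternatives, among them DESeq2, in which 4.64% of all genes passed.

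Nupr1, a small stress-induced chromatin protein and ATF4 target (chr7:126623246-126625470), was the only one of the 10 with a lower mean in TSC1. It was at 13.2, 13.9 and 8.16 TPM in WT and at 11.4, 3.78 and 7.49 TPM in TSC1, for a log2 fold change of -0.68 (SE 0.36). The groups overlapped, and counts were between 11 and 53 per library. The log2 fold change lay between -1.07 and -0.38 over the alternatives and passed the threshold in none. A difference in the direction of the other genes was therefore not seen for Nupr1, although its promoter window held the same CARE-like letters as that of Chac1.

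Chac1, a gamma-glutamylcyclotransferase that degrades glutathione and a target of ATF4 and CHOP (chr2:119351242-119354326), had the largest fold change and the widest spread. It was at 6.8, 5.08 and 4.45 TPM in WT and at 87.1, 51.9 and 11.4 TPM in TSC1, or 16.0, 9.54 and 2.09 times the WT mean. All TSC1 libraries were above all WT libraries, but they differed among themselves by 7.65 times from lowest to highest, against 1.53 times within WT. The log2 fold change was 3.15 (SE 0.61). Chac1 passed the threshold in 9 of the 16 alternatives, so its call depended on the analysis more than those of Asns, Atf5 and Stc2.

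Asns, asparagine synthetase, whose induction through a CARE is a classical readout of amino acid limitation (chr6:7675165-7693209), was the most uniform of the group. It was at 92.0, 92.0 and 111 TPM in WT and at 276, 273 and 325 TPM in TSC1, or 2.81, 2.77 and 3.31 times the WT mean. The coefficient of variation was 11.2% in WT and 10.1% in TSC1, and the log2 fold change was 1.54 (SE 0.11), between 1.44 and 1.65 over the alternatives. Asns passed the threshold in all 16 of them, the only one of the 10 to do so. The ratio of Chac1 to Asns in TPM was 0.074, 0.0552 and 0.0401 in WT and 0.316, 0.191 and 0.035 in TSC1, so that 2 of the TSC1 libraries were above the WT range and replicate 3 was below it.

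Stc2, stanniocalcin 2, a secreted glycoprotein induced by endoplasmic reticulum stress and by ATF4 (chr11:31359441-31370061), was at 3.56, 3.3 and 3.88 TPM in WT and at 18.4, 11.9 and 9.63 TPM in TSC1. The lowest TSC1 library was 2.48 times the highest WT library. The log2 fold change was 1.86 (SE 0.25), or 3.62-fold. Stc2 and Atf5 each passed the threshold in 14 of the 16 alternatives.

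**Figure D2:**
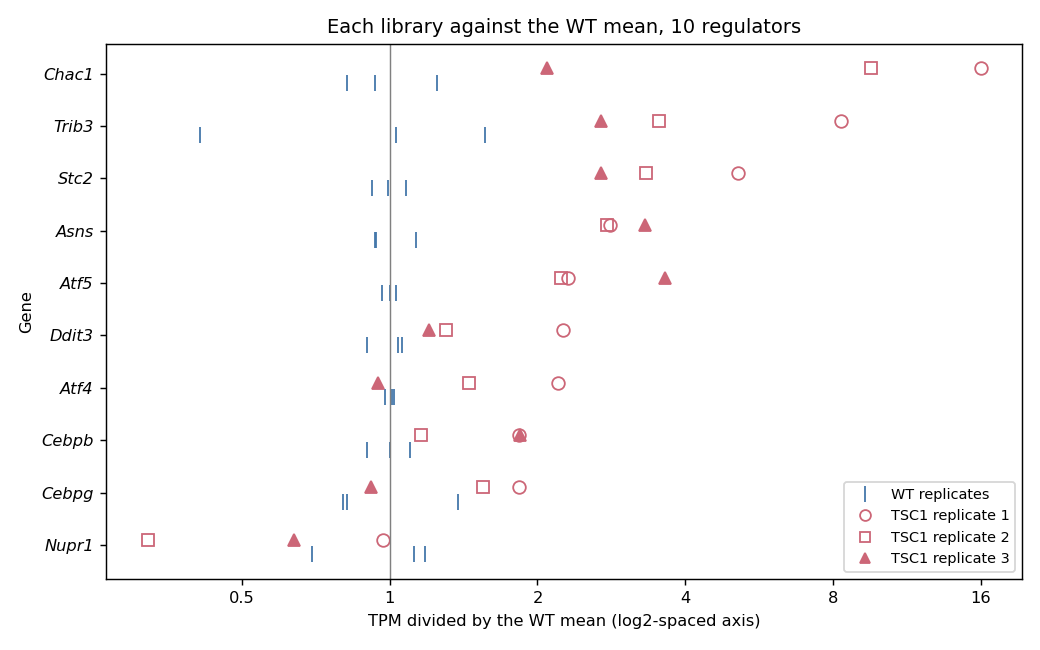
TPM of each library divided by the WT mean of that gene (x axis, log2-spaced), with the 10 genes ordered by TSC1 replicate 1. Blue ticks are WT libraries, open circles, open squares and filled triangles TSC1 replicates 1, 2 and 3. Replicate 3 is the lowest of the TSC1 libraries for Chac1, Trib3, Stc2, Ddit3, Atf4 and Cebpg and the highest for Asns, Atf5 and Cebpb.

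The TSC1 libraries therefore did not rank alike for all genes. On the CPM scale, replicate 1 was the highest TSC1 library for 7 of the 10 (Atf4, Ddit3, Trib3, Chac1, Nupr1, Cebpg and Stc2), replicate 3 for Atf5, Asns and Cebpb, and replicate 2 for none. With TSC1 replicate 3 left out, 6 of the 10 passed the threshold beside 5.68% of all genes, the 4 above together with Atf4 and Trib3, and the log2 fold changes were 3.63 for Chac1, 2.49 for Trib3, 2.04 for Stc2, 1.44 for Asns and 1.15 for Atf5. Asns alone passed when WT replicate 2 or WT replicate 3 was left out, in fits in which 29 of 14073 and 35 of 14114 genes passed. Of all genes tested, 31.9% were highest in TSC1 replicate 1, 31.3% in replicate 2 and 36.9% in replicate 3. Over the 6 libraries, the Pearson correlation of log2 CPM with Atf4 was 0.913 for Ddit3, 0.909 for Chac1, 0.811 for Trib3, 0.799 for Cebpg and 0.787 for Stc2, compared with 0.499 for Asns, 0.435 for Cebpb, 0.336 for Atf5 and -0.168 for Nupr1. These are descriptions over 6 points that share library and depth. The 5 tested genes most like Atf4 by this measure were Efcab5 (0.998), Ccnk (0.994), Pms1 (0.988), Arrdc2 (0.987) and A930013F10Rik (0.986), and those most like Ddit3 were Vps54 (0.995), Luc7l2 (0.985), Aasdh (0.984), Mypn (0.982) and Pnpla7 (0.981). None of these 10 genes passed the edgeR threshold, with adjusted p values between 0.202 and 0.597.

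Levels per transcript spanned a wide range. In WT, the mean was highest for Atf4 at 215 ± 4.45 TPM (SD, n = 3), followed by Asns at 98.3 ± 11.0 TPM, and then by Ddit3, Atf5 and Cebpg at 27.5 ± 2.4, 27.4 ± 0.91 and 22.9 ± 7.52 TPM, whose ranges overlapped. Nupr1 (11.7 ± 3.12 TPM) and Chac1 (5.44 ± 1.22 TPM) came next, with ranges apart from their neighbours, then Stc2 and Cebpb at 3.58 ± 0.291 and 3.02 ± 0.305 TPM, which overlapped, and Trib3 at 0.827 ± 0.475 TPM. In TSC1, Asns at 291 ± 29.5 TPM no longer lay below the range of Atf4 at 330.0 ± 136 TPM. Chac1 (50.1 ± 37.9 TPM) overlapped Atf5 (74.7 ± 21.5 TPM) and Ddit3 (43.6 ± 15.9 TPM), from which it had been apart in WT. Nupr1, Stc2, Cebpb and Trib3 formed the low end, at 7.55 ± 3.81, 13.3 ± 4.54, 4.85 ± 1.17 and 4.01 ± 2.51 TPM.

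The other genes of the pathway were taken from 11 lists of 130 genes, of which 122 had a row and 115 were tested. Of these, 20 rose and none fell at an edgeR adjusted p below 0.05, beside 0.859% and 0.659% of all genes tested. Without TSC1 replicate 3, 29 of the 115 passed, 27 higher and 2 lower, in a fit in which 5.68% of all genes passed. DESeq2 calls in the lists below stand beside 4.64% of all genes called by DESeq2. The share over all genes also changed with each library left out, so the ranges given for these fits are a description. The 8 genes without a row were not analysed here. The lists were compiled with earlier results of these data known, so each list as a whole is described by its counts and median and was given no test of its own. Counts of genes with an unadjusted p below 0.05 are given without the share over all genes, so nothing is read from them.

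Upstream of ATF4, none of 16 genes for eIF2 alpha kinases and their cofactors, eIF2 alpha phosphatases, eIF2 and eIF2B subunits passed, and the list median was 0.07 on the log2 scale. By edgeR, 1 of the 16 had an unadjusted p below 0.05, and by DESeq2 none was called. The amino acid sensing kinase GCN2 (Eif2ak4) was at 17.3 to 19.1 TPM in WT and 16.4 to 19.4 TPM in TSC1, and the endoplasmic reticulum kinase PERK (Eif2ak3) was at 19.1 to 25.3 and 20.7 to 28.1 TPM. Ppp1r15a (GADD34), the inducible phosphatase subunit that is itself a target of ATF4 and CHOP, had the largest difference of the list, 0.32 (SE 0.21, edgeR adjusted p = 0.448). It was at 17.2, 25.3 and 25.6 TPM in WT and 34.1, 21.4 and 31.6 TPM in TSC1, and the groups overlapped. The kinases act through phosphorylation, which mRNA levels do not measure.

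Among other bZIP genes that can pair with ATF4 or CHOP, none of the 10 tested of 14 listed passed in edgeR. By edgeR, 4 had an unadjusted p below 0.05, a count given without the share over all genes. DESeq2 called 3 of 9, beside 4.64% of all genes it tested. These were Cebpd, Jdp2 and Fosl2, all higher in TSC1. Cebpd (C/EBP delta) was at 3.82, 3.7 and 3.49 TPM in WT and 10.3, 5.22 and 10.1 TPM in TSC1, without overlap, for a log2 fold change of 1.19 (SE 0.26, edgeR adjusted p = 0.059). In TSC1, replicates 1 and 3 were high and replicate 2 lower, as for Cebpb. Jdp2, an inhibitor of AP-1, was at 14.6, 11.3 and 11.8 TPM in WT and 27.8, 21.5 and 17.5 TPM in TSC1 (0.8, SE 0.18, edgeR adjusted p = 0.0683). Atf3, a bZIP factor that ATF4 induces in acute stress, was low throughout, at 1.02 to 1.07 TPM in WT and 1.84, 1.12 and 0.62 TPM in TSC1 (log2 fold change 0.13, SE 0.4, edgeR adjusted p = 0.897). Atf3 and Jdp2 both held the stricter CARE-like letters in their windows.

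Paralogues of the 10 genes were examined as close relatives that are not described as ATF4 effectors. None of the 5 tested, Trib1, Trib2, Chac2, Stc1 and Asnsd1, passed in edgeR or DESeq2. By edgeR, 3 had an unadjusted p below 0.05, a count given without the share over all genes. Chac2, the constitutive relative of Chac1, differed most among them in the direction of TSC1, by 0.45 (SE 0.17, edgeR adjusted p = 0.204). Stc1 was at 5.71 to 6.06 TPM in WT, above Stc2, and at 5.99 to 7.13 TPM in TSC1, below Stc2. Trib1 and Trib2 had log2 fold changes of -0.38 (SE 0.15, edgeR adjusted p = 0.235) and -0.22 (SE 0.073, edgeR adjusted p = 0.168), opposite in sign to Trib3.

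Targets of ATF4 in amino acid metabolism and tRNA charging came next. Of 8 enzymes of amino acid and one-carbon metabolism tested, 5 rose (2 to 5 when 1 library was left out, 7 in DESeq2), with a list median of 0.85. Psph, the last enzyme of serine synthesis, rose by 1.42 (SE 0.12, edgeR adjusted p = 0.00154), Shmt2, mitochondrial serine hydroxymethyltransferase, by 1.25 (SE 0.16, adjusted p = 0.0106), and Mthfd2, of the mitochondrial folate pathway, by 1.69 (SE 0.25, adjusted p = 0.0203). Mthfd2 was at 63.7, 59.7 and 29.2 TPM in TSC1, with replicate 3 lowest as for Chac1, whereas Shmt2 at 73.5, 68.0 and 105.4 TPM had replicate 3 highest as for Asns and Atf5. Pycr1, of proline synthesis, did not pass at 0.77 (SE 0.21, adjusted p = 0.107). Cth was the only 1 of the 8 with a lower mean in TSC1, at 1.91 to 2.54 against 2.25 to 3.25 TPM in WT. Its groups overlapped (log2 fold change -0.29, SE 0.26, edgeR adjusted p = 0.594). Of 12 tRNA synthetases tested, 8 rose (6 to 9 when 1 library was left out, 9 in DESeq2) with a median of 0.68, among them Cars by 1.04 (SE 0.086, adjusted p = 0.00112), Nars by 0.82 (SE 0.094, adjusted p = 0.00511) and Aars by 0.8 (SE 0.061, adjusted p = 0.000846). Iars, at 0.92 (SE 0.28, adjusted p = 0.134), did not pass, and Wars differed least, at 0.1 (SE 0.084, adjusted p = 0.552). Replicate 3 was the highest TSC1 library for 9 of the 12 synthetases.

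Of 9 amino acid transporters tested, 3 rose (2 to 6 called when 1 library was left out, and 7 in DESeq2, 6 higher and 1 lower), and the median was 0.47. Slc7a3, a cationic amino acid transporter, rose by 3.78 (SE 0.28, edgeR adjusted p = 0.000846), from 4.9, 5.29 and 7.53 TPM to 66.8, 64.4 and 114.9 TPM, a larger fold than any of the 10 regulators. Slc7a5, the LAT1 light chain, rose by 0.99 (SE 0.098, adjusted p = 0.00292) and the glycine transporter Slc6a9 by 0.6 (SE 0.097, adjusted p = 0.0266). Not all ATF4 targets in the list were higher in TSC1, and 3 of the 9 had a negative log2 fold change. Slc43a1 was at -0.28 (SE 0.31, edgeR adjusted p = 0.669), and its groups overlapped. The cystine transporter Slc7a11 was at 9.01 to 16.6 TPM in WT and 9.11 to 16.2 TPM in TSC1 (log2 fold change -0.12, SE 0.23, adjusted p = 0.823) although its window held CARE-like letters 66 and 47 bases before the start, and Slc1a5 was lower without overlap at -0.82 (SE 0.18, edgeR adjusted p = 0.0646), and DESeq2 called it lower (adjusted p = 0.0121).

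**Figure D3:**
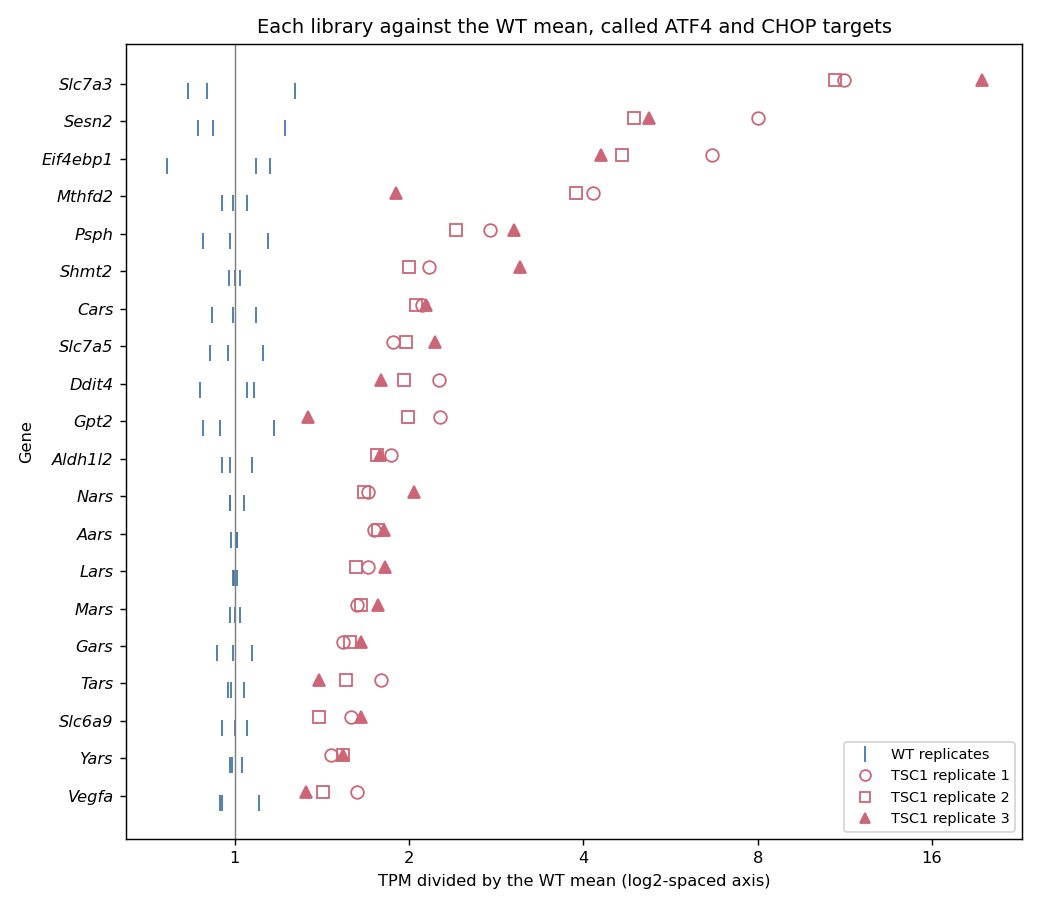
TPM of each library divided by the WT mean (x axis, log2-spaced) for the 20 genes of the pathway lists that passed the edgeR threshold, all higher in TSC1, with symbols for libraries as in the plot of the 10 regulators. Replicate 3 is the lowest TSC1 library for Mthfd2, Gpt2, Ddit4, Eif4ebp1, Vegfa and the synthetase Tars, and the highest for Slc7a3, Slc7a5, Slc6a9, Shmt2, Psph and the synthetases Cars, Nars, Aars, Lars, Mars and Gars.

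Of 10 other stress targets of ATF4 and CHOP tested, 4 rose (3 to 4 when 1 library was left out, 5 in DESeq2), and the median was 0.30. Sesn2, a stress-induced inhibitor of mTORC1 signaling, rose by 2.56 (SE 0.21, edgeR adjusted p = 0.00112), Eif4ebp1, the translational repressor 4E-BP1, by 2.33 (SE 0.23, adjusted p = 0.00262), Ddit4 (REDD1), also an inhibitor of mTORC1, by 0.97 (SE 0.098, adjusted p = 0.00319), and Vegfa by 0.51 (SE 0.099, adjusted p = 0.046). Of the targets of CHOP in cell death, Bbc3 (PUMA) was at 28.8, 29.8 and 26.1 TPM in WT and 38.7, 39.0 and 42.3 TPM in TSC1, without overlap. It lay at the threshold, with 0.47 (SE 0.097, edgeR adjusted p = 0.0517) and an adjusted p of 0.0118 in DESeq2 and between 0.0118 and 0.195 over the 16 alternatives. Tnfrsf10b (DR5) at 0.95 to 1.25 TPM in TSC1 against 1.14 to 1.93 TPM in WT, Bcl2l11 (BIM) at 5.41 to 8.15 against 7.03 to 11.3 TPM, Pmaip1 (NOXA) at 2.4 to 3.22 against 2.39 to 2.98 TPM, and the oxidoreductase Ero1l at 21.9 to 24.8 against 22.8 to 24.9 TPM, overlapped between the groups. Gadd45a overlapped as well, at 4.53 to 5.24 TPM in TSC1 against 4.64 to 5.28 TPM in WT. Fgf21 and Gdf15, the secreted hormones of the integrated stress response, stayed below the count filter in both groups, with at most 0.21 and 0.72 TPM in any library. Of 10 autophagy genes described as ATF4 and CHOP targets, none passed in edgeR or DESeq2, none had an unadjusted edgeR p below 0.05, and log2 fold changes lay between -0.03 and 0.23.

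The arm of the unfolded protein response that runs through ATF6 and XBP1 and raises chaperones is activated by endoplasmic reticulum stress beside PERK. Of 19 genes tested, none passed in edgeR, 7 had an unadjusted p below 0.05, and the median was -0.06. DESeq2 called 5, of which Herpud1 and Edem1 were higher and Hsp90b1, Calr and Pdia3 lower. The chaperone Hspa5 (BiP) was at 322, 341 and 360 TPM in WT and 306, 258 and 309 TPM in TSC1, lower in all TSC1 libraries (log2 fold change -0.26, SE 0.09, edgeR adjusted p = 0.178). Herpud1, a gene of endoplasmic reticulum-associated degradation that also answers to ATF4, went the other way, at 37.1, 40.8 and 34.9 TPM in WT and 94.8, 68.5 and 48.7 TPM in TSC1 (0.87, SE 0.2, adjusted p = 0.0657), and its TSC1 libraries ranked as those of Atf4. Of the 18 genes of this list with a promoter window, Herpud1 was the only 1 with CARE-like letters. An endoplasmic reticulum stress element (ERSE) on either strand was held by 8 of the 18, by 0.137% of all genes with a window and by none of the 10 regulators. Syvn1, 1 of these 8, was not among the 19 genes tested. None of 8 cytosolic heat shock genes and none of 8 immediate early genes passed in edgeR, and none of the 7 in each list that DESeq2 tested passed there, with 1 gene of each list at an unadjusted edgeR p below 0.05 and medians of -0.16 and -0.06. Their largest differences were those of Hspa1b, at -0.69 (SE 0.23, edgeR adjusted p = 0.17), and Fosb, at -1.01 (SE 0.41, adjusted p = 0.238).

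**Figure D4:**
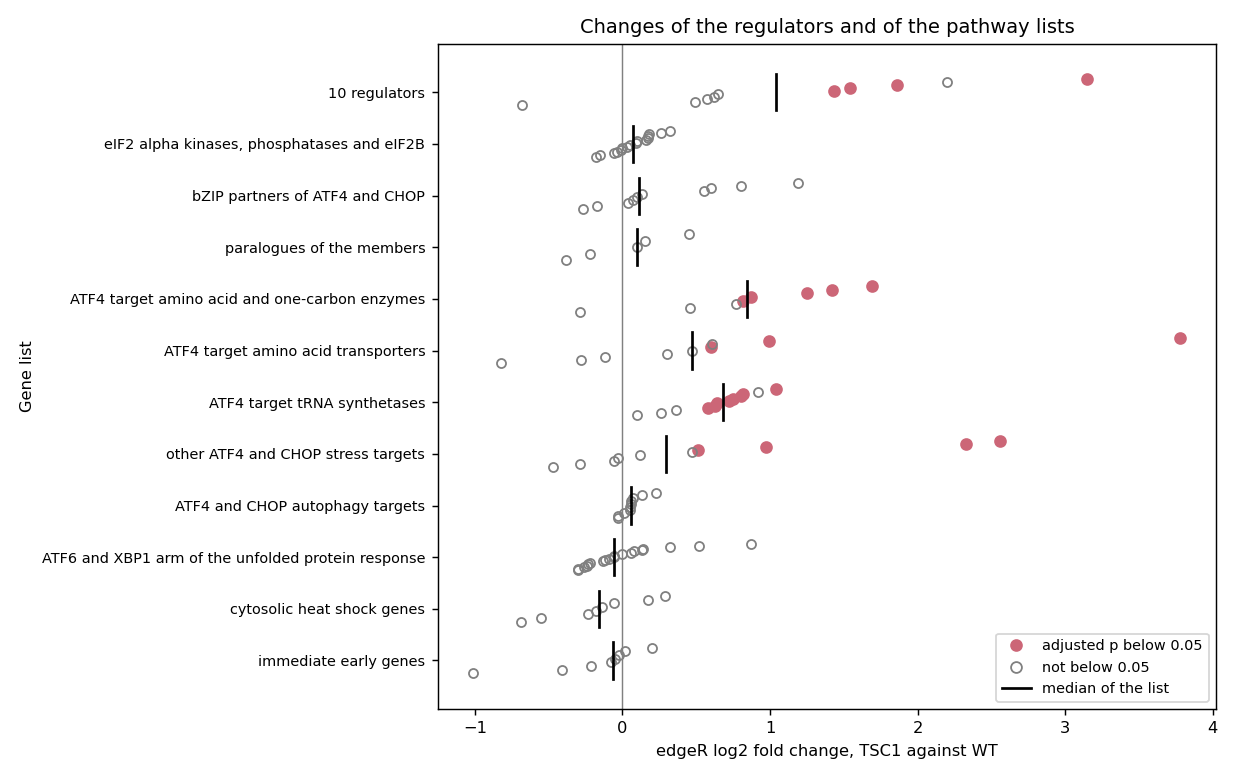
Log2 fold change of TSC1 against WT from edgeR (x axis) for each tested gene of the 10 regulators and the 11 pathway lists (rows). Filled circles have an adjusted p below 0.05, open circles do not, and black bars are list medians. Filled circles occur among the regulators, enzymes, transporters, synthetases and other stress targets, and not in the lists of kinases, bZIP partners, paralogues, autophagy, ATF6 and XBP1, heat shock or immediate early genes.

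Markers of other cell types were compared in the same libraries, because in bulk tissue fewer cells of a type and less RNA per cell cannot be told apart. The choroid plexus markers Ttr, Kl, Folr1, Aqp1 and Clic6 summed to 1700, 1170 and 2470 TPM in WT and 30.6, 109 and 865 TPM in TSC1. All 5 were lower in every TSC1 library than in every WT library, as were 11.7% of all genes tested on the CPM scale. None was at 0, and none passed in edgeR, while DESeq2 called 2 and the edgeR fits without 1 library called 0 to 4. The sum was mostly Ttr, at 23.9, 102.4 and 842.7 TPM in TSC1 replicates 1, 2 and 3. In Ttr and Folr1 the order of the TSC1 libraries was the reverse of that for Atf4, Ddit3, Trib3, Chac1, Cebpg and Stc2. It was not in Kl (0.44, 0.65 and 0.57 TPM), Aqp1 (2.81, 2.67 and 9.21 TPM) or Clic6 (1.76, 1.11 and 5.46 TPM). Markers of subpallial and GABAergic neurons summed to 328 to 386 TPM in WT and 192 to 257 TPM in TSC1, and 3 of 5 fell in edgeR (4 in DESeq2, 0 to 5 when 1 library was left out). Sums for pallial neurons (1390 to 1570 against 1450 to 1860 TPM), astroglia (509 to 658 against 574 to 671 TPM), microglia (44.8 to 58.6 against 35.4 to 48.3 TPM) and endothelium (167 to 224 against 140 to 170 TPM) overlapped between the groups. All 5 endothelial log2 fold changes were negative, and DESeq2 called 3 of them. DESeq2 called 1 pallial marker, higher, and 0 microglial markers. Erythroid sums were 1500, 1990 and 5180 TPM in WT and 1230 to 1760 TPM in TSC1. Meningeal fibroblast sums were 124 to 211 against 73.6 to 198 TPM. Of the 5 astroglial markers, 2 rose in edgeR, Gfap by 1.09 (SE 0.13, adjusted p = 0.00683) and Aldoc by 0.6 (SE 0.087, adjusted p = 0.0195). The others did not pass in edgeR. Gja1, at -0.69 (SE 0.21, adjusted p = 0.13), and Slc1a3, at -0.31 (SE 0.1, adjusted p = 0.149), had lower means in TSC1. Aqp4, at 0.27 (SE 0.12, adjusted p = 0.3), had a higher mean. Markers of the oligodendrocyte lineage summed to 188 to 227 TPM in WT and 175 to 186 TPM in TSC1, without overlap, and none passed in edgeR (1 in DESeq2, 0 to 1 when 1 library was left out). Over the 11 marker lists, no sum passed 0.05 (two-sided exact permutation tests, lowest p = 0.1, the smallest possible, adjusted p = 0.367). The part of cell composition in the values of the 10 genes was not tested. With sex as a term in the edgeR fit, log2 fold changes of the 10 kept their sign and were 3.0 for Chac1, 2.19 for Trib3, 1.85 for Stc2, 1.54 for Asns, 1.39 for Atf5 and 0.52 for Atf4. In that fit 5 of the 10 passed the threshold, Trib3 in addition to the 4. Among all genes tested, 691 passed in it, against 212 without the term.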

How the data were processed

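Gene tables of 3 WT and 3 TSC1 telencephalon libraries were analysed, with groups from the genotype labels and replicate numbers from the sample titles. After quality control and trimming, the authors used MapSplice2 for alignment to the mm10 genome, and RSEM 1.2.12 gave the abundance of each gene. The deposited expected counts are RSEM estimates without normalization, and the deposited TPM and FPKM are scaled by the authors for effective length and for library size. The library kit is not stated to keep the strand, so reads from overlapping antisense genes cannot be told apart.

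Expected counts were rounded and tested with edgeR 4.0.16 in R 4.3.3 (TMM, filterByExpr, quasi-likelihood test, Benjamini-Hochberg adjustment over all genes tested, threshold 0.05). All fold changes are edgeR values on the log2 scale, TSC1 against WT. Levels between genes were compared in TPM. All pairs of libraries were checked to be distinct. Alternatives were RLE and upper quartile normalization, DESeq2 1.42.0, limma 3.58.1 on log2(TPM + 1) and log2(TPM + 0.1), no filter, at least 10 counts in every sample, effective lengths as offsets, a replicate block, a sex term (replicate 3 against 1 and 2), and each library left out in turn. The scripts were tested on simulated data. The permutation method of the study was not rerun. Intervals are not given for counts, since 3 libraries per group set the precision.

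The 10 genes, the pathway lists and the markers were chosen with earlier results of these data known. Named were all 10 genes and Tsc1, in each list up to 3 genes with the largest rise and fall among those that passed and the largest difference among those that did not, and the 5 genes most correlated with Atf4 and with Ddit3. Other genes were named after their values were seen, as examples of their list. Gene positions and promoter windows are from RefSeq on GRCm38.p6, counted from 1. A result on 1 marker gene is not reported here.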

Additional observations from a re-analysis of the deposited data

How the results depend on the processing

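The direction of all 10 genes was the same under every alternative that could be run, 16 each and 15 for Trib3, which has no value under a minimum of 10 counts in every sample. Of the 4 calls among them, Asns was kept in all 16, Atf5 and Stc2 in 14 and Chac1 in 9. The genes were selected on these same libraries, so these tallies are a description and no further support. Leaving out 1 library gave between 1 and 6 calls among the 10, with Asns alone left without WT replicate 2 or WT replicate 3, and 6 without TSC1 replicate 3. Among all genes the 212 calls became between 29 and 799 when 1 library was left out (29 without WT replicate 2, 799 without TSC1 replicate 3), 636 with DESeq2, 346 without a filter and 691 with a sex term. The 20 calls of the pooled pathway lists became 36 with DESeq2 (32 higher, 4 lower), 34 with a sex term (31 higher, 3 lower) and between 13 and 29 when 1 library was left out. Replicate numbers did not mark shared animals or litters in the labels. Deviations of same-numbered libraries correlated at 0.267, -0.133 and 0.318, and 4 of 6 libraries correlated best with their own number. The labels give no pairing, so the main fit had none, and whether same-numbered libraries were paired was not tested. With a replicate block 551 genes and 34 genes of the pooled lists were called. The order of WT levels was the same in FPKM for all 10 genes, which was nearly fixed in advance because TPM is FPKM rescaled within each library. In CPM, which is not corrected for length, 6 kept their rank. With the stricter TGATGCAA, 2 of the genes held a CARE-like match in place of 4. Tsc1 passed with a replicate block (adjusted p = 0.0217), as did Bbc3 (adjusted p = 0.0494). The causes of these changes were not tested. Depth limits Trib3, Nupr1 and Cebpb, which had under 100 counts in every library. It also limits the WT side of Stc2, at 36, 38 and 36 counts in WT, and of Chac1, at 60, 51 and 36 counts in WT.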

Other observations

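Some genes of the pathway had a WT replicate 1 that stood above WT replicates 2 and 3. Nfe2l2, the oxidative stress factor NRF2, was at 19.0, 8.02 and 6.45 TPM in WT and 24.1, 17.7 and 8.13 TPM in TSC1. Iars was at 47.7, 27.5 and 26.5 TPM in WT and 83.0, 74.9 and 38.1 TPM in TSC1. Cebpg, at 31.6, 18.4 and 18.7 TPM in WT, had the same shape, and in all 3 genes WT replicate 1 lay above TSC1 replicate 3. These genes were chosen after their values were seen. The ratio of Stc2 to Asns in TPM was 0.0387, 0.0359 and 0.035 in WT and 0.0666, 0.0437 and 0.0296 in TSC1.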
